A study of Mus musculus with 2 samples.

Results

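The genes described here encode the ligands, receptor chains and adaptor through which interleukin-17 (IL-17) and interleukin-22 (IL-22) act on kidney cells, with a subunit of IL-23. They were chosen by symbol: Il17f, Il17b, Il17d, Il17ra, Il17rb, Il17rc, Il17re, Il22ra1, Traf3ip2 and Il23a. Of these 10 genes, 9 were analysed, among 20002 genes in all, and Il17b was not analysed here. RNA was sequenced from whole mouse kidney, with 1 control library and 1 library labelled CKO, to learn which transcripts differ when Regnase-2, an RNA-degrading protein encoded by Zc3h12b, is depleted. The mice were C57BL/6J, received no further treatment, and were injected with AAV9, a viral vector, through the tail vein at 11 weeks of age. In Reg-2 CKO mice the vector carried a short hairpin RNA against Regnase-2, so the group is a knockdown although its label is that of a proximal tubule-specific conditional knockout. In control mice the vector is given as empty in one place of the methods and as carrying a control hairpin in another. Analysis is placed at 14 weeks of age in one part of the methods and tissue harvest at 16 weeks in another. AAV9 is said to favour proximal tubules, but RNA came from the whole organ, and how many mice made up a library is not stated. With 1 library in each group, no difference has a replicate check and no test between the groups was made.

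IL-17A and IL-17F, made mainly by T helper 17 (Th17) cells, gamma delta T cells and innate lymphoid cells, bind a receptor of IL-17RA and IL-17RC. The adaptor Act1, encoded by Traf3ip2, joins that receptor and leads to NF-kappaB activity and to slower decay of chemokine transcripts. IL-22 comes from many of the same cells but signals through IL-22RA1 and IL-10RB to STAT3, and its receptor is found on epithelial cells rather than on blood leukocytes. In kidney, IL-17 is known for drawing neutrophils into injured tissue, and IL-22 for epithelial survival and repair.

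The deposited values were whole numbers whose lowest value was 35 in the control library and 51 in the CKO one. A floor of 34 and 50 was subtracted, and the remainders, called counts here, summed to 38851231 (control) and 43588721 (CKO), and the median gene had 284 and 513.5. CKO counts were multiplied by 0.667, which sets the median ratio of genes to 1, before log2((CKO + 1)/(control + 1)) was taken. Intervals are 95% Clopper-Pearson intervals that cover counting error only, take each unit as 1 read, and treat as independent PCR reads that carry no molecular identifiers. Zc3h12b itself, on the X chromosome, had 47 counts in the control library and 59 in the CKO one. Its log2 ratio was -0.25 (interval -0.83 to 0.33), so depletion of the target was not detectable at this depth, and the group labels were not verified by it.

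After scaling, the largest differences among the 9 genes lay below the control, in a ligand and in the IL-22 receptor. Il17f had 27 counts in the control library and 8 scaled counts in the CKO library, 3.38-fold lower (interval 1.65 to 7.31). Il22ra1 had 452 and 235, 1.93-fold lower (1.67 to 2.22). Il17rb, the IL-25 receptor chain, had 413 and 623, 1.51-fold higher (1.34 to 1.70). Beside it, Il17re, the IL-17C receptor chain, was higher as well, with 342 and 480 scaled counts, 1.40-fold (1.23 to 1.60). The shared chain Il17ra had 989 and 745, 1.33-fold lower (1.22 to 1.45). At this scaling the intervals of Il17rc and Traf3ip2 include no difference. With equal totals Il17rc and Traf3ip2 were at log2 ratios of 0.45 and 0.50, above those intervals. With the values as deposited they were at 0.61 and 0.65. The sign of Il17ra turned with equal totals and the values as deposited, and that of Il17f with the latter alone, while Il22ra1, Il17rb and Il17re kept theirs. Of the 7 genes with at least 10 scaled counts in 1 library, 0 were at least 2-fold higher, where 13.4% of the 17469 genes kept were, and 1 was at least 2-fold lower, where 5.35% were. Il17f was that gene, and it passed the filter only through the control library, so this count is partly set by the filter. The other 6 lay within 2-fold, as did 81.3% of all genes kept. The median log2 ratio of the 9 genes analysed was 0.08, that of Traf3ip2, beside 0.02 for all genes kept, with quartiles of -0.33 and 0.48. Single genes of the 9 lay on either side, from Il17f to Il17rb. Over all genes kept, 71.4% of those past 2-fold were higher in the CKO library, and this share was 89.9% for equal library totals and 96.5% for the values as deposited.

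**Figure D1:**
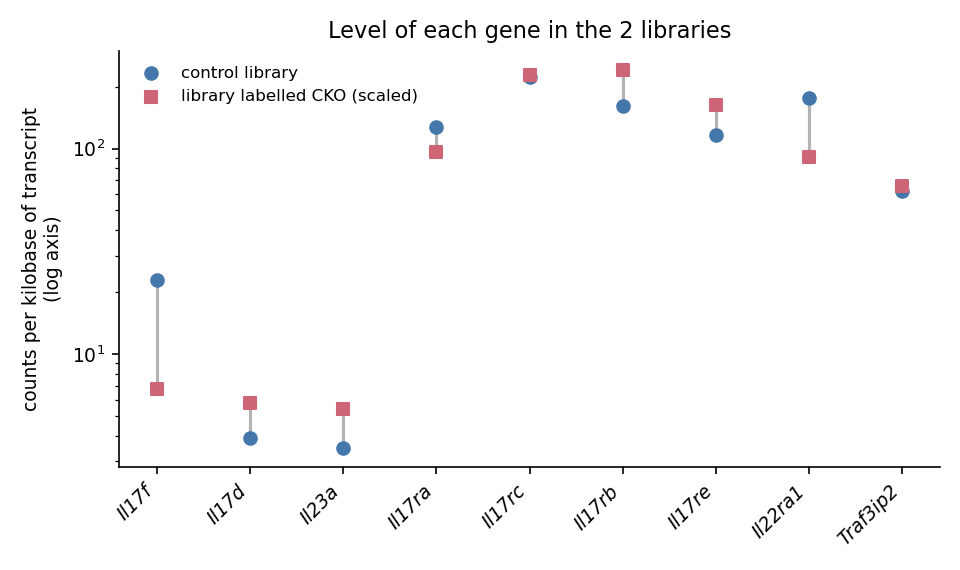
Level of each of the 9 genes in the control library (circles) and the library labelled CKO (squares, scaled), in counts per kilobase of transcript on a log axis. Il17rc was at 224 and 228, Il22ra1 at 176 and 91.3, and Il17d and Il23a were below 10 in both libraries.

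Levels were compared between genes as counts per kilobase of the longest annotated transcript. In the control library Il17rc was the most abundant of the 9 at 224 per kilobase, followed by Il22ra1 at 176, Il17rb at 160, Il17ra at 128, Il17re at 116 and Traf3ip2 at 62.1. Il17f at 22.9 per kilobase, Il17d at 3.92 and Il23a at 3.48 were the least abundant. Among neighbours in that order, the counting intervals of Il22ra1 and Il17rb, of Il17ra and Il17re, and of Il17d and Il23a overlapped, and those of the other neighbours did not. Such intervals leave out which transcripts of a gene were present, on which the order also depends. Il17ra, with the most counts of the 9 in both libraries, was divided by a length of 7752 bases. In the CKO library the order per kilobase was Il17rb at 242, Il17rc at 228, Il17re at 163, Il17ra at 96.1, Il22ra1 at 91.3, Traf3ip2 at 65.8, Il17f at 6.79, Il17d at 5.76 and Il23a at 5.41. There the intervals of Il17rb and Il17rc overlapped, as did those of Il17ra and Il22ra1 and those of the 3 cytokine genes next to each other. Il22ra1 thus stood next to the most abundant gene per kilobase in the control library, and below all 4 listed IL-17 receptor genes in the CKO library, where its interval overlapped that of Il17ra.

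Among the ligands, Il17f encodes IL-17F, which forms homodimers and heterodimers with IL-17A. The gene (Entrez 257630, chr1:20777146-20790617, minus strand, GRCm38) had 27 counts in the control library and 12 in the CKO one, or 8 after scaling. Its log2 ratio was -1.64 (interval -2.87 to -0.73), rank 17185 of 17469 from the highest. With the values as deposited, 61 and 62, the ratio changed sign to 0.02, in a setting that omits both the floor subtraction and the scaling. In alternatives chosen after seeing the data, it was -0.54 with only the floor subtraction omitted and -1.11 with only the scaling omitted. Il17d, whose product is a less studied member of the family expressed outside T cells, is annotated at chr14:57524777-57543166 on the plus strand (Entrez 239114). It had 5 and 11 counts, and its log2 ratio of 0.47 had an interval of -1.09 to 2.43. Il23a (Entrez 83430, chr10:128296139-128298752, minus strand) encodes the p19 subunit of IL-23, the cytokine that maintains Th17 cells. It had 6 counts in the control library and 14 in the CKO one, with a log2 ratio of 0.56 and an interval of -0.83 to 2.30. For Il17d and Il23a no difference was detectable at this depth, and both fell short of 10 scaled counts. Il17a, Il17c and Il25 were not analysed here.

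The partners of IL-23 also had few counts. Il12b, which encodes the p40 subunit shared by IL-23 and IL-12, had 7 counts in the control library and 12 in the CKO one, a log2 ratio of 0.17. Il12rb1, the receptor chain common to both cytokines, had 12 and 28 counts and a log2 ratio of 0.60. Il12rb2, specific to IL-12, had 8 and 10 counts and a log2 ratio of -0.23. The intervals of all 3 included 0. Ebi3, a subunit of IL-27 and IL-35, had 12 and 36 counts, a log2 ratio of 0.94 and an interval of 0.02 to 2.08. None of the 5 analysed genes of the 7 on the IL-23 and IL-12 list was past 2-fold by its log2 ratio, but only 2 of them reached 10 scaled counts, and of all genes kept 13.4% were higher and 5.35% lower. The median log2 ratio of the 5 was 0.56.

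The IL-17 receptor chains were more abundant per kilobase than Il17f and Il17d in both libraries, and their log2 ratios were not alike. Il17ra (Entrez 16172, chr6:120463247-120487559, plus strand) encodes the chain shared by the receptors of IL-17A, IL-17F, IL-17C and IL-25. It had 989 counts in the control library and 1118 in the CKO one, 745 after scaling, with a log2 ratio of -0.41 (interval -0.53 to -0.28). With equal library totals its ratio was 0.01 and with the values as deposited 0.19, so that its direction depended on the scaling. Il17rc (Entrez 171095, chr6:113471427-113483140, plus strand) encodes the chain that pairs with IL-17RA to bind IL-17A and IL-17F. It had 515 counts in the control library and 788 in the CKO one, 525 after scaling, with a log2 ratio of 0.03 (interval -0.13 to 0.19). At this scaling it was, of all 5 IL-17 receptor genes, the one whose interval included no difference. With equal library totals the ratio of Il17rc was 0.45 and with the values as deposited 0.61, both above that interval.

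Il17rb (Entrez 50905, chr14:29996135-30008896, minus strand) encodes the chain that binds IL-25 and IL-17B. It had 413 counts in the control library and 935 in the CKO one, 623 after scaling, and a log2 ratio of 0.59 (interval 0.43 to 0.76), rank 3759 from the highest. Its annotated span overlaps Actr8 on the opposite strand, and the strand setting of the counting is not given in the sources used here, so reads of both genes may be mixed. Il17re (Entrez 57890, chr6:113458484-113470758, plus strand) encodes the chain through which epithelial cells respond to IL-17C. It had 342 and 720 counts, 480 after scaling, and a log2 ratio of 0.49 (interval 0.30 to 0.68), rank 4298. Il17rd, a receptor-like member of the family that can associate with IL-17RA, had 325 and 715 counts and a log2 ratio of 0.55 (interval 0.36 to 0.75). The ratios of Il17rb and Il17re were positive under the 6 alternatives that altered them.

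**Figure D2:**
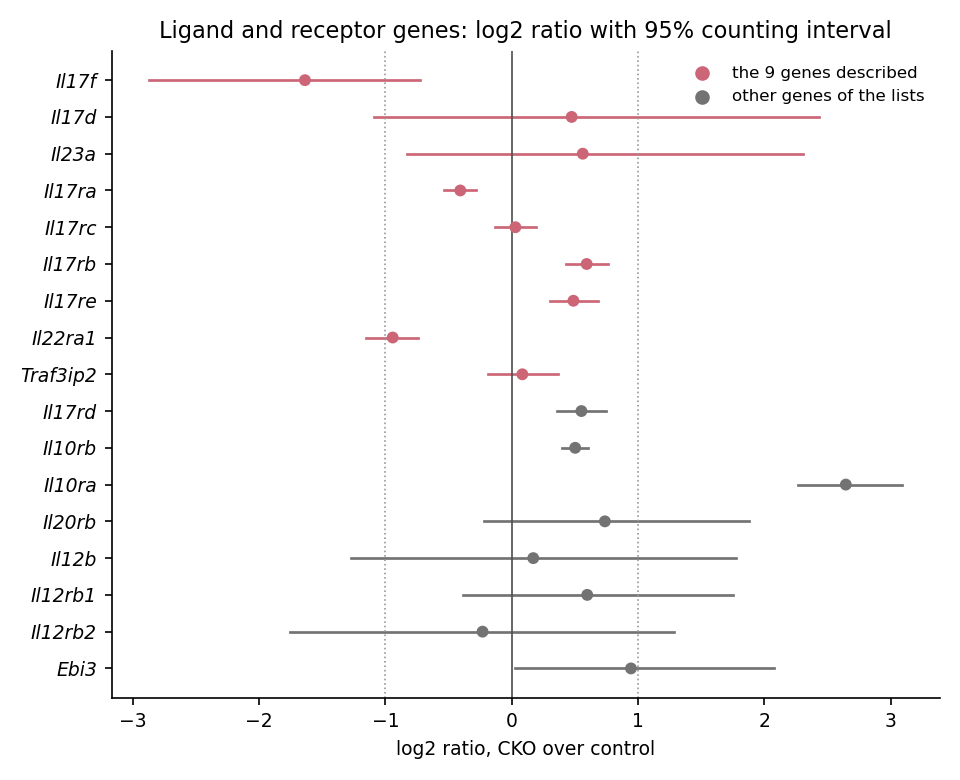
Log2 ratio of the CKO library over the control library for the ligand, receptor and adaptor genes, with 95% counting intervals as lines and 2-fold marked by dotted lines. Il17f and Il10ra lay past 2-fold in opposite directions. The intervals of Il17d, Il23a, Il17rc and Traf3ip2 crossed 0, as did those of Il20rb, Il12b, Il12rb1 and Il12rb2.

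Il17re and Il17rc are neighbours on chromosome 6, in the same orientation and 668 bases apart, yet their log2 ratios were 0.49 and 0.03. The 222 bases before the first annotated base of Il17rc, which lie within that gap (chr6:113471205-113471426, plus strand, RefSeq, GRCm38.p6), are shown because they separate the pair.
Il17rc: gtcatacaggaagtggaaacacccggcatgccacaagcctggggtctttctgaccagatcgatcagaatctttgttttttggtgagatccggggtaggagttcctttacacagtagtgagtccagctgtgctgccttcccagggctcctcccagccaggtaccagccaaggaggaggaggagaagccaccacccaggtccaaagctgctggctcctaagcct

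Because the scaling of the libraries cancels when receptor chains are divided by each other, the partner chains were also compared directly. The level of Il17rb relative to Il17ra, per kilobase, was 1.26 in the control library and 2.52 in the CKO one, a shift with an exact conditional interval of 0.79 to 1.21 on the log2 scale. For Il17re relative to Il17ra it was 0.912 and 1.70, a log2 shift of 0.90 (0.67 to 1.13). For Il17rd relative to Il17ra it was 0.308 and 0.599, a log2 shift of 0.96 (0.73 to 1.19). The smallest shift was that of Il17rc, from 1.75 to 2.37 relative to Il17ra, or 0.44 on the log2 scale (0.23 to 0.64). All 4 partner chains thus stood higher relative to the shared chain in the CKO library. Because the 4 shifts share Il17ra, at -0.41 after scaling, a partner without a difference of its own would also stand higher. Il17rc, at 0.03, was such a case. These shifts kept their sign under the 2 alternatives that can alter them, the values as deposited and the minimum as floor. Both alter counts this large only a little, so a change of sign was hardly possible. As a share of the summed level of the 5 receptor genes per kilobase, Il17ra made up 19.1% in the control library and 12.2% in the CKO one, while Il17rb made up 24.0% and 30.7%. Il17rc made up 33.5% and 29.0%, Il17re 17.4% and 20.7%, and Il17rd 5.88% and 7.31%. The summed level was 667 and 787 counts per kilobase, a log2 ratio of 0.24.

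Il22ra1 (Entrez 230828, chr4:135728172-135752140, plus strand) encodes the chain that gives epithelial cells their response to IL-22 and, with IL-20RB, to IL-20 and IL-24. It had 452 counts in the control library and 352 in the CKO one, 235 after scaling. Its log2 ratio was -0.94 (interval -1.15 to -0.74), rank 16412 of 17469, and it was negative under the 6 alternatives that altered it, from -0.96 to -0.27. The interval spans 2-fold, so which side of that threshold the gene lies on was not resolved. Il10rb, which encodes the chain that IL-22RA1 needs to signal, had 1140 and 2422 counts and a log2 ratio of 0.50 (interval 0.40 to 0.61). The chains of the IL-22 receptor thus differed in opposite directions in these libraries. Relative to Il10rb per kilobase, Il22ra1 was at 0.431 in the control library and 0.158 in the CKO one, 2.73-fold lower (exact conditional interval 2.33 to 3.20).

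The remaining receptor genes of the IL-22, IL-20 and IL-10 family gave a further contrast. Il20rb, on few counts, had 12 in the control library and 31 in the CKO one, a log2 ratio of 0.74 with an interval of -0.22 to 1.88. Relative to it, Il22ra1 was at 41.0 and 12.3 per kilobase, a log2 shift of -1.73 (-2.85 to -0.70). Il10ra, the IL-10 receptor chain of leukocytes, had 56 and 533 counts and a log2 ratio of 2.64 (interval 2.27 to 3.09). Of the 4 analysed genes of 11 on this list, Il10ra was the one past 2-fold. All 8 macrophage markers were higher in the CKO library as well, as were 51.5% of all genes kept. Of these markers 7 were past 2-fold (87.5%, beside 13.4% of all genes kept), and their median log2 ratio was 2.61. Their summed counts were 3848 in the control library and 25678 in the CKO one, and per kilobase Csf1r was the most abundant in the control library and Lyz2 in the CKO library. The part of macrophages in the level of Il10ra was not tested.

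Markers of proximal tubule, the segment the vector is said to favour, lay in the same direction as Il22ra1. Of 7 such markers 6 had log2 ratios below 0, as did 48.3% of all genes kept. Slc34a1, the most abundant, was past 2-fold lower at -1.17, beside 5.35% of all genes kept. Their summed counts were 373509 in the control library and 335735 in the CKO one, a log2 ratio of -0.74 after scaling. Their median was -0.49, and -0.07 with equal totals, but 0.09 when the deposited values were used unchanged. Slc5a12, a lactate transporter, was the exception at 0.41. Collecting duct markers, in contrast, had a median of 0.41, with 6 of 8 above 0 beside 51.5% of all genes kept, from -0.27 for Slc4a1 to 0.79 for Aqp2. Their summed counts were 16351 and 32594, and Aqp2 was the most abundant. In bulk tissue, fewer cells of a type and less RNA per cell cannot be told apart, and the part of either tubule segment in the levels of Il22ra1, Il17rb and Il17re was not tested.

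The promoter of Il22ra1 is printed because, with the median gene ratio, this gene had the largest difference among the well-counted members. With equal totals Il17rb at 1.01 and Il17re at 0.91 lay further from 0 than Il22ra1 at -0.53. With the values as deposited, Il17rb at 1.14 and Il17re at 1.03 did so too, beside -0.27 for Il22ra1. The 250 bases before its RefSeq start (chr4:135727909-135728158, plus strand, RefSeq, GRCm38.p6) hold a match to the NF-kappaB consensus, in capitals, that begins 156 bases before the start. For comparison, short windows around matches are given for Cxcl1 (chr5:90891164-90891194, plus strand) and Nfkbia (chr12:55492657-55492686, minus strand), a target and an inhibitor of IL-17 signalling, and for Socs3 (chr11:117969502-117969530, minus strand), a STAT3 target. In Cxcl1 the capitals mark overlapping matches, and in Socs3 they mark TTCNNNGAA, the STAT motif.
Il22ra1: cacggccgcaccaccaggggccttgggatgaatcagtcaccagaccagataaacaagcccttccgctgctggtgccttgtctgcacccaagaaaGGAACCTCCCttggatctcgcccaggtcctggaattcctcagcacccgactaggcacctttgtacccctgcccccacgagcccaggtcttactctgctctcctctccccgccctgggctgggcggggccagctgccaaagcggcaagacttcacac
Cxcl1: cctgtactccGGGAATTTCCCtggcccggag
Nfkbia: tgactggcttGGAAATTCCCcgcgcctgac
Socs3: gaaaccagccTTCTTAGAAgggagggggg
Both motifs were searched on both strands of the 250 bases before each start. The NF-kappaB consensus was found in 7.25% of all 32851 promoter windows and TTCNNNGAA in 7.02%, or in 8.23% and 8.13% of the 27025 genes with a window. Of the 6 members matched in the promoter table by symbol, Il22ra1 held the former and 0 held the latter. Il17ra, Traf3ip2 and Il23a had no entry. Among the matched genes, 2 of 10 IL-17 targets (Cxcl1 and Tnfaip3) and 4 of 6 inhibitors (Gsk3b, Nfkbia, Tnfaip3 and Tnip1) held the NF-kappaB consensus, as did 0 of 7 IL-22 targets. The STAT motif was held by 2 of 7 IL-22 targets (Fga and Socs3), 0 of 10 IL-17 targets and 1 of 6 inhibitors (Tnip1). A match describes letters in a window and is no evidence of binding.

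Traf3ip2 (Entrez 103213, chr10:39612934-39655307, plus strand), the gene of the adaptor Act1, had 178 counts in the control library and 283 in the CKO one, 189 after scaling. Its log2 ratio was 0.08 (interval -0.19 to 0.36), and its span overlaps the antisense genes Gm16365 and E130307A14Rik. With CKO counts scaled by the median gene ratio, no difference in the adaptor was detectable at this depth. This depended on the scaling. The log2 ratio of Traf3ip2 was 0.50 once library totals were equalised, and 0.65 for the deposited values used unchanged, both above 0.36. Of the 23 genes on the list of IL-17 signalling, which holds Traf3ip2, 4 (17.4%) were at least 2-fold higher, near the 13.4% of all genes kept, and 0 lower, with a median log2 ratio of 0.15. The rest lay between -0.57 for Chuk and 0.83 for Nfkb1. Nfkbiz, which encodes the NF-kappaB cofactor I-kappaB-zeta, had 181 and 1951 counts, a log2 ratio of 2.84 (interval 2.62 to 3.07). Arid5a, an RNA-binding protein that stabilizes inflammatory transcripts, had 49 and 319 counts and a ratio of 2.10. Cebpd, a transcription factor, was at 1.84, and Ikbke, the kinase that phosphorylates Act1, was at 1.49. At the lower end, Chuk, an I-kappaB kinase, had 5555 and 5626 counts, the RNA-binding protein gene Elavl1 was at -0.39 and Tab1 at -0.24.

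Of the 6 inhibitors of IL-17 signalling, Tnfaip3, a ubiquitin-editing enzyme, was the one past 2-fold (16.7%, beside 13.4% of all genes kept), with 136 counts in the control library and 1189 in the CKO one and a log2 ratio of 2.53. Nfkbia, the inhibitor of NF-kappaB, was at 0.93, Tnip1 at 0.76, and Zc3h12a, which encodes Regnase-1, at 0.69 with 116 and 281 counts. Usp25 at 0.19 and Gsk3b at -0.06 lay near 0, and the median of the list was 0.72. In IL-22 signalling, Socs3, the feedback inhibitor of STAT3, had 84 and 1479 counts and a log2 ratio of 3.54 (interval 3.24 to 3.89). Socs1, a related inhibitor, had 8 and 37 counts and a ratio of 1.51, and passed the filter only through the CKO library. Stat3 itself was at 0.41, Tyk2 at 0.27 and Jak1 at -0.00034.

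**Figure D3:**
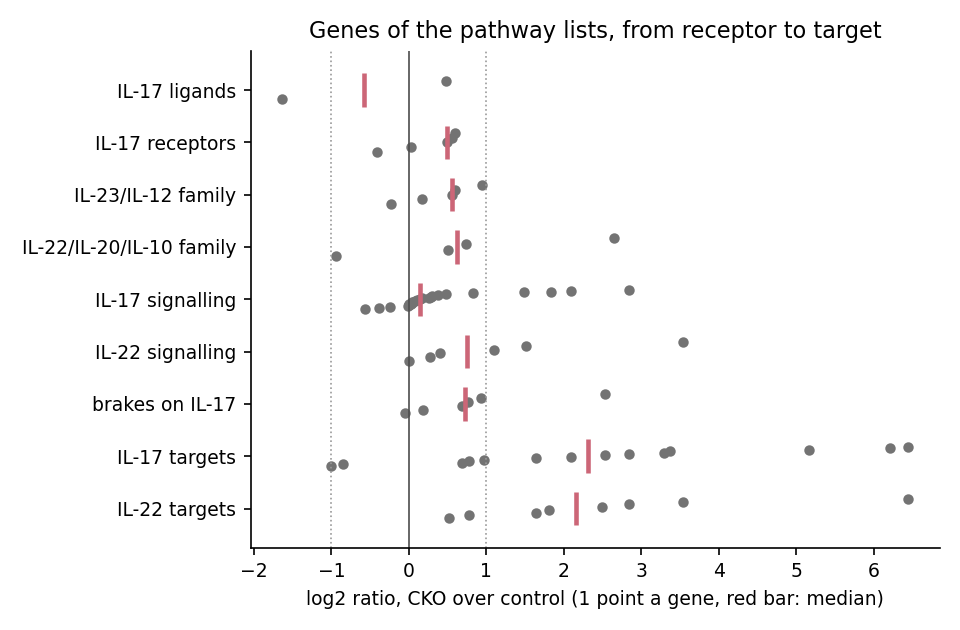
Log2 ratio of each analysed gene of the pathway lists, 1 point a gene, with the median of each list as a bar. Medians were 0.49 for the IL-17 receptors and 0.15 for IL-17 signalling, and 2.31 and 2.15 for the IL-17 and IL-22 targets.

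Genes known to respond to these cytokines had higher medians than the receptors, with overlapping ranges. Of 21 IL-17 targets listed, 14 were analysed, 9 (64.3%) were at least 2-fold higher and 1 lower, and their median log2 ratio was 2.31. This lay 2.29 above the median of all genes kept, but 1.07 above it for the values as deposited. Of 15 IL-22 targets listed, 8 were analysed, 6 (75%) were at least 2-fold higher and 0 lower, with a median of 2.15. Of all genes kept, 13.4% were at least 2-fold higher. Ccl7, with 4 counts in the control library, passed the filter only through the CKO library. The median of the macrophage markers was 2.61 and that of the neutrophil markers 1.64. These lay 2.59 and 1.62 above the median of all genes kept, but 2.38 and 0.67 above it for the values as deposited. S100a8 and S100a9 are also 2 of the 3 neutrophil markers analysed, and the part of macrophages and neutrophils in the target levels was not tested. The lists share Lcn2, S100a8 and S100a9, or 21.4% of the analysed genes of the former and 37.5% of the latter, and many of their genes also respond to other inflammatory signals. Lcn2, which encodes a siderophore-binding protein, was the highest of both lists at 6.45, followed among the IL-17 targets by the chemokine genes Ccl2 at 6.22 and Cxcl1 at 5.16. The lowest IL-17 targets were Mmp13, a collagenase gene, at -1.01 with 76 and 56 counts, Pigr at -0.85 and Zc3h12a at 0.69. The interval of Mmp13 (-1.55 to -0.51) spans 2-fold, so which side of that threshold it lies on was not resolved. Pigr, which carries immunoglobulin A across epithelium, was abundant, with 15860 counts in the control library and 13178 in the CKO one. Targets of the same cytokine thus differed in opposite directions.

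Among the IL-22 targets, Socs3 and Fgg followed Lcn2. Fgg, a fibrinogen chain, had 51 counts in the control library and 560 in the CKO one, a log2 ratio of 2.85 (interval 2.46 to 3.32). The lowest were Fga, another fibrinogen chain, at 0.52 with 943 and 2028 counts, S100a8 at 0.77 with 7 and 19 counts, and S100a9 at 1.64 with 13 and 64. All 8 had log2 ratios above 0, as did 51.5% of all genes kept. However, the interval of S100a8 included 0 (-0.46 to 2.35), and this gene passed the filter only through the CKO library. Il22 was not analysed here, and the part of IL-22 in the level of these targets was not tested.

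Markers of cells that could carry or make these cytokines were mostly higher in the CKO library. Of 12 Th17-type markers, 10 were analysed, and 3 of the 9 kept (33.3%, beside 13.4% of all genes kept) were past 2-fold, all higher, with a median of 0.59 over the 10. They were Il7r, the IL-7 receptor, at 1.68 with 13 and 66 counts, Ccr6, a chemokine receptor, at 1.38 with 5 and 22, and Il1r1, the IL-1 receptor, at 1.29 with 193 and 708. Ccr6 passed the filter only through the CKO library, and Cd163l1, with 8 and 10 counts, was not kept. The lowest kept were Maf at -0.78, Rora at -0.28 and Zbtb16 at 0.46, and Maf was the most abundant, with 8986 and 7822 counts. In kidney Maf and Rora are not confined to lymphocytes, so the list does not mark Th17 cells alone.

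Of 8 T cell markers 6 were analysed, 4 were past 2-fold higher (66.7%, beside 13.4% of all genes kept), and the median was 1.71. That median was 1.16 with a pseudocount of 10. It lay 1.68 above the median of all genes kept, but 0.55 above it for the values as deposited. Cd3e had 6 counts in the control library and 33 in the CKO one, Cd3g had 13 and 96, and Cd4 had 17 and 86. Cd3e and Cd8a passed the filter only through the CKO library, which partly sets the count of 4. Trac, the most abundant, went the other way with 99 and 109 counts, a log2 ratio of -0.44. The summed T cell counts were 154 and 408. Beside Il17f, a product of such cells that was lower after scaling, Trac was lower too. The other 5 T cell markers had log2 ratios above 0, as did 51.5% of all genes kept, with an interval that includes 0 for Cd247. As deposited, Trac had 133 and 159 and Il17f 61 and 62, so neither was lower in the CKO library there. The part of T cell number in the level of Il17f was not tested. Of 9 neutrophil markers 3 were analysed, with summed counts of 42 and 260 and a median of 1.64. S100a9 was the most abundant of them and Csf3r the highest, at 2.37. Cd79b, the 1 B cell marker analysed of 4, had 23 and 40 counts and a ratio of 0.21.

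**Figure D4:**
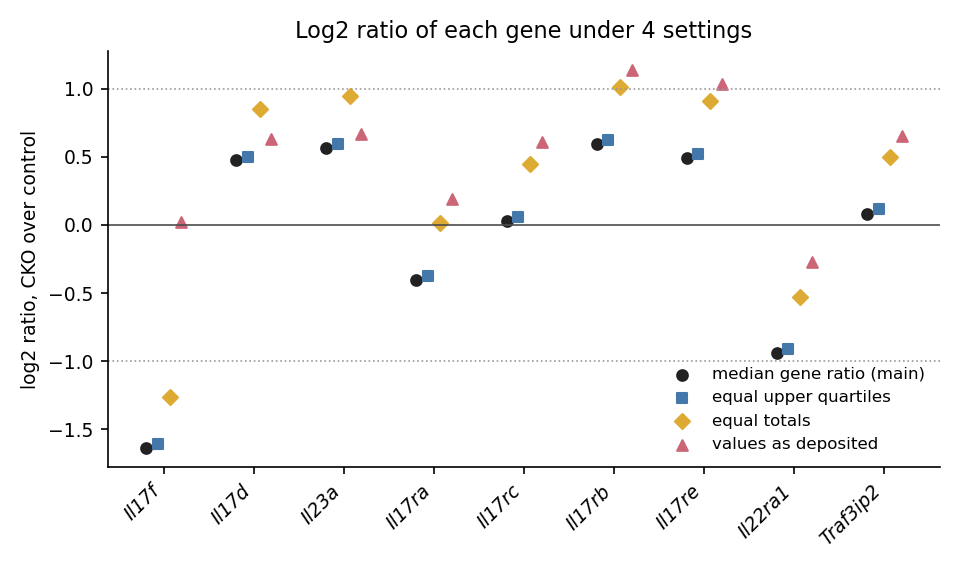
Log2 ratio of each of the 9 genes under 3 scalings of the libraries and with the values as deposited, with 2-fold marked by dotted lines. Il22ra1 was below 0 and Il17rb and Il17re were above 0 under each, while Il17f changed sign with the values as deposited, and Il17ra there and with equal totals.

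The scaling of the libraries set where 0 lies for all genes. The median log2 ratio of all genes kept was 0.02 with the median gene ratio, 0.44 for equal totals and 0.59 for the values as deposited. Relative to that median, Il22ra1 was at -0.96, -0.97 and -0.87 under these settings, and Il17ra at -0.43, -0.43 and -0.40. Il17rb was at 0.57, 0.57 and 0.54, and Il17re at 0.47, 0.46 and 0.44. Il17rc was at 0.0069, 0.0044 and 0.015. Equal totals multiply all CKO counts by the same factor, so these relative values could hardly differ from those of the first setting. Apart from scaling, the values as deposited differ only in keeping the floors, which are small beside the counts of these receptor genes. The relative values of these genes could thus move only a little there, and that they did is no check on them. Il17f was at -1.66 and -1.70 with the floors subtracted and at -0.57 with the values as deposited.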

How the data were processed

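Whole-kidney poly(A) RNA was sequenced with a stranded kit, with 1 library in each of 2 groups. Alignment by the authors used STAR 2.7.3a, counting used HTSeq, and normalization used DESeq2. The submitters' processing notes also name edgeR and the build mm10 (GRCm38). Their FPKM from Cufflinks 2.2.1 were not used here. The deposited values, called normalized counts by the authors, were treated as a score, since they are whole numbers with a different floor in each library and unequal totals. That they are reads above a floor is an inference.

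The floor (minimum minus 1) was subtracted, CKO counts were scaled by the median over genes of control to CKO, and a pseudocount of 1 was added before log2. Folds carry no pseudocount. A gene was kept at 10 or more scaled counts in 1 library, and called at 2-fold. Ratio intervals came from the share of CKO in the unscaled sum, those of partner chains from a conditional odds ratio, and those of levels from the Poisson distribution. Lengths and coordinates came from GENCODE M21, with a length for 17820 genes (89.1%), and promoters from RefSeq (GRCm38.p6).

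Named were all members, Zc3h12b, the ligand, receptor and IL-23 lists, and of other lists up to the 3 highest, the 3 lowest and the most abundant gene. Ikbke, Nfkb1, Ccl7 and Cd163l1, and the genes whose sequences are shown, were chosen after their values were seen. Some genes that this rule covers are not reported here. The members and lists were chosen with earlier results of these data known. Likeness to other genes was not computed, since 2 libraries give no such measure. Alternatives were equal totals, equal upper quartiles, values as deposited, the minimum as floor, pseudocounts of 0.5 and 10, no filter, and at least 50 scaled counts. For Il17f, omitting the floor subtraction alone and the scaling alone were added after seeing the data. The steps were tested on simulated data in which well-counted genes were raised as often as lowered. Changed genes with few counts, and a surplus of higher genes as in these libraries, were not covered. Python 3.11.15, numpy 2.4.6, pandas 2.3.3, scipy 1.17.1 and matplotlib 3.10.9 were used.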

Additional observations from a re-analysis of the deposited data

How the results depend on the processing

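With equal library totals, 3870 genes were at least 2-fold higher and 437 lower, in place of 2334 and 934. Of the members 1 was then at least 2-fold higher, Il17rb at 1.01. The medians were 0.50 for the members, 0.91 for the IL-17 receptors and 0.57 for IL-17 signalling. With the values as deposited, 3574 genes were higher and 131 lower, 2 members were higher (Il17rb at 1.14 and Il17re at 1.03) and 0 lower, and the medians were 0.63, 1.03 and 0.73. Il17f reversed to 0.023 in this setting, which omits the floor subtraction and the scaling together. In alternatives chosen after seeing the data it was -0.54 with only the floor subtraction omitted and -1.11 with only the scaling omitted. Equal totals and the values as deposited moved the median of all genes kept by 0.42 and 0.57. The median of the IL-17 targets was lowest with the values as deposited, at 1.67, and was 1.88 with a pseudocount of 10. With at least 50 scaled counts, 617 genes and 0 members were at least 2-fold lower, since Il17f was no longer kept. For single genes, marker lists and receptor pairs, the 8 alternatives chosen beforehand gave 248 further values, of which 86 could not differ or did not. Of the other 162, 129 stayed within their intervals, 33 lay outside, and 11 changed sign. A list median has no interval of its own, and the joined counting intervals of its middle gene or genes were used. These can be wide: for the IL-17 ligands they ran from -2.87 to 2.43. The median of that list thus counted as within when it went from -0.58 to 0.33 with the values as deposited. The sign changes were those of Il17f, Il17ra and the medians of the IL-17 ligands and of proximal tubule, loop and distal tubule, podocyte and endothelial markers. Each group is a single library, so neither animal nor handling differences can be told apart from the group. No paired analysis was possible because neither group had a second library. Depth limits the cytokine genes: Il17d, Il23a and Il12b had 14 or fewer counts in each library, and their intervals span more than 2-fold.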

Other observations

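Markers of other kidney cells gave values not described above. Of 5 fibroblast markers 4 were at least 2-fold higher in the CKO library (80%, beside 13.4% of all genes kept), with a median log2 ratio of 1.69 and summed counts of 5379 in the control library and 22371 in the CKO one. Col1a1, a collagen chain, was the highest at 2.65, and per kilobase Pdgfrb was the most abundant in the control library and Col1a2 in the CKO library. Endothelial markers had a median of -0.10 and podocyte markers of -0.06, and both medians were above 0 for equal totals and for the values as deposited. Of 5 markers of the loop of Henle and distal tubule, Pvalb was past 2-fold lower at -1.17 (beside 5.35% of all genes kept), with 1055 and 704 counts, while Umod, the most abundant, was at 0.47. Their median was -0.14, and it too was above 0 for both.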
